A study of Mus musculus with 6 samples.

Results

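The intermediate filament and lamin genes of cultured mouse astrocytes were examined as a group of 7: Gfap, Vim, Nes, Synm and Plec of the cytoplasm, and Lmna and Lmnb1 of the nucleus. They were chosen by gene name, with no threshold on measured values, from the 55357 genes listed, and all 7 were expressed above the filter on low values. RNA was sequenced from primary astrocytes grown from the cortex of C57BL/6 mouse embryos. In 3 cultures (KE) the cells received a plasmid from which the CMV promoter expresses BRAF K499E with a FLAG tag, and they were harvested 48 hours later. The other 3 cultures (NT) were nontransfected. KE and NT thus differ both in BRAF KE and in having received a plasmid, and the effect of each cannot be told apart. No culture received BRAF without the mutation, so the mutation and the added BRAF expression cannot be told apart either. Nothing in the sources used here says whether the replicate cultures were separate preparations, so the tests measure the spread between these cultures.

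Intermediate filaments are rope-like polymers of coiled-coil proteins. Glial fibrillary acidic protein (GFAP) and vimentin build the astrocyte network, nestin and synemin are large proteins that assemble only together with such partners, and plectin crosslinks the filaments to actin, microtubules and adhesion sites. The lamins are the nuclear members of the family and form the lamina under the inner nuclear membrane, with A-type lamins from Lmna and B-type lamins from Lmnb1 and Lmnb2. A rise of GFAP and vimentin is the classical sign of a reactive astrocyte, nestin marks neural stem and progenitor cells, and loss of lamin B1 is widely used as a mark of senescent cells.

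The values are normalized counts, that is, estimated read counts per gene after scaling of each culture by DESeq2. KE and NT were compared with limma on log2(normalized count + 1), and a gene was called differentially expressed at a Benjamini-Hochberg adjusted p under 0.05 over the 15280 genes with a mean of at least 10. Approximate depth was 24500000 to 34100000 reads, lowest in KE replicate 2. Braf itself was 35025, 34933 and 40978 in KE and 925, 811 and 946 in NT (log2FC 5.37), so every culture matched its label. Changes were widespread, and 51.3% of tested genes were called, 25.3% as higher in KE and 26% as lower.

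In KE cultures Gfap, Vim and Lmna were higher, Lmnb1 was lower, and Nes, Synm and Plec were not called (limma). Gfap rose 1.82-fold, Lmna 1.46-fold and Vim 1.28-fold, while Lmnb1 fell to 0.386 of its NT level. Thus 4 of 7 genes (57.1%) were called, beside the 51.3% of all tested genes. KE and NT cultures did not overlap in those 4 genes. Of all tested genes, 59.9% had no overlap and 50.2% had no overlap and were called. The median log2FC of the 7 genes was 0.35, against 0.00 for all tested genes. The share of called genes was thus near the background, and the results below concern the single genes and the balance between them. The same 51.3% is the background for the share called in each list of genes below.

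**Figure D1:**
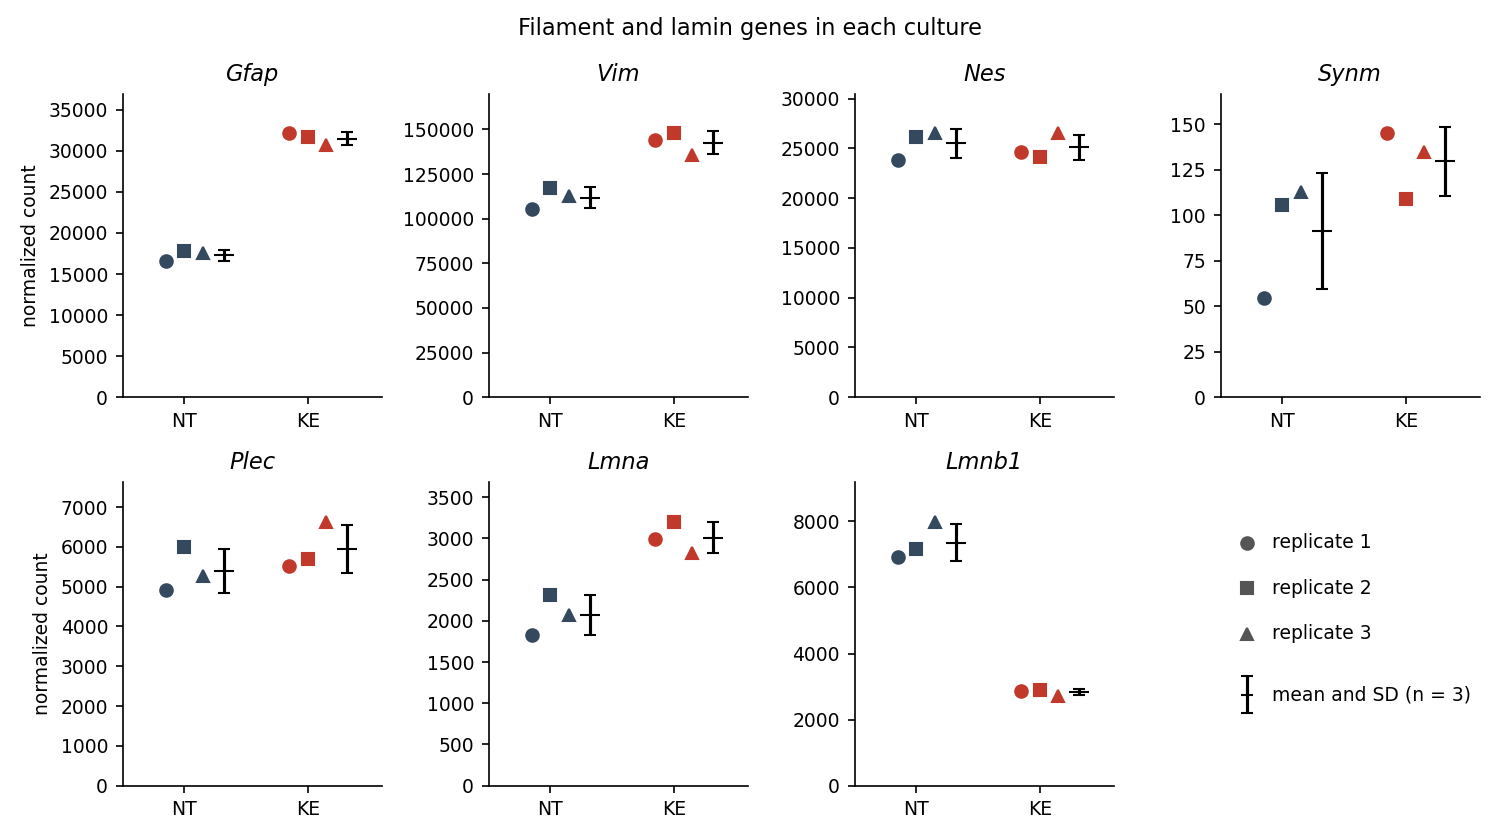
Normalized count of each filament or lamin gene (vertical axes, from 0) in each NT and KE culture, with symbols for the replicate number and black bars for the mean and SD of 3 cultures. Gfap, Vim and Lmna are higher in every KE culture than in any NT culture, Lmnb1 is lower, and the cultures overlap for Nes, Synm and Plec.

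The sequence before the transcription start is shown for the 3 genes that rose, Gfap, Vim and Lmna, and for Nes, which was not called. Each is the 250 bases upstream of the start of the Gencode canonical transcript, read from GRCm39 and written 5′ to 3′ on the strand of the gene. Capitals mark matches on either strand. The letters searched were TATAAA for the TATA box, GGGCGG for the GC box, TGANTCA for AP-1, TTCNNNGAA for STAT, CACGTG for the E-box and, for the CCAAT box, the letters of its name.
Gfap, chr11:102788186-102788435, minus strand: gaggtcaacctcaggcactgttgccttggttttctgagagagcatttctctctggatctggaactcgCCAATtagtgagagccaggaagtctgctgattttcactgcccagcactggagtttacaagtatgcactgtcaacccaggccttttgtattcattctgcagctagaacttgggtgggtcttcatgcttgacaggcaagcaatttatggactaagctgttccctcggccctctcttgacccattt
Vim, chr2:13578513-13578762, plus strand: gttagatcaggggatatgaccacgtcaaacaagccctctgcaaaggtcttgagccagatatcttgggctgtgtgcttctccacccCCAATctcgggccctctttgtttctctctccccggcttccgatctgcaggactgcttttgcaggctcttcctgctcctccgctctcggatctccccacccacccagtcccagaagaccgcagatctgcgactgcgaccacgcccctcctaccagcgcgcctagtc
Lmna, chr3:88410922-88411171, minus strand: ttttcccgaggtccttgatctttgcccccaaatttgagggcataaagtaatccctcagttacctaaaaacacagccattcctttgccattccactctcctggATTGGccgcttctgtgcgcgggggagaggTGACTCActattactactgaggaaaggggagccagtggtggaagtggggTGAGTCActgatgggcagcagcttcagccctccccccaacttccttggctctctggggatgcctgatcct
Nes, chr3:87878150-87878399, plus strand: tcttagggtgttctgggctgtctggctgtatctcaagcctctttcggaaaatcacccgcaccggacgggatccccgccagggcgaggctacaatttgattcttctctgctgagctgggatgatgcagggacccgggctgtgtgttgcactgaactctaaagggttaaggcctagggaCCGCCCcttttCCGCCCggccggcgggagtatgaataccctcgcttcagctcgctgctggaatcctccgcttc

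The Gfap and Vim windows each held a CCAAT box, beginning 183 and 165 bases before the start, and none of the other letters searched. The Lmna window held a CCAAT box at 148 bases and AP-1 matches at 119 and 70 bases, whereas the Nes window held only GC boxes, at 73 and 62 bases. Of 21770 windows of the same kind, 36.5% held CCAAT, 36.3% held GGGCGG, 6.17% held TGANTCA at least once, and 0.262% held it 2 or more times. TATAAA was in 11.9% of windows, TTCNNNGAA in 7.7% and CACGTG in 6.26%. Among the 7 genes the AP-1 letters were found for Lmna alone, and only before this start. In the 6 windows of the same length before RefSeq starts, which cover 5 of the genes and include Lmna, the AP-1 letters were in none, the Gfap window held none of the letters searched, and Lmna had a CCAAT box at 131 and a GC box at 52 bases. In the windows not printed, Synm held a CCAAT box and an E-box, Plec a GC box, and Lmnb1 a GC box and a STAT match. RefSeq starts Vim 359 bases downstream of the Gencode canonical start, and there a TATA box begins 32 bases before the start.
Vim, chr2:13579078-13579107, plus strand: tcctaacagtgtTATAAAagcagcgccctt
A match is a description of the letters and not of a bound site.

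Gfap (ENSMUSG00000020932; GRCm39 chr11:102778159-102791738, minus strand) encodes the filament protein by which astrocytes are most often recognised. Its normalized count was 32167, 31661 and 30696 in KE replicates 1, 2 and 3, and 16537, 17745 and 17593 in NT replicates 1, 2 and 3. The lowest KE culture was thus far above the highest NT culture, and the spread within groups was small (CV 2.37% in KE and 3.81% in NT). The log2FC was 0.87 (SE 0.06, 95% interval 0.74 to 0.99; adjusted p = 3.8e-07, limma), and 6.43% of tested genes had a larger one. In bulk RNA, a change in the share of cells that express a gene and a change in RNA per cell cannot be told apart.

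Vim (ENSMUSG00000026728; GRCm39 chr2:13578738-13587639, plus strand) encodes vimentin, the filament of immature astrocytes and of many mesenchymal cells. It was 144258, 147951 and 135779 in KE and 105545, 117026 and 112650 in NT. The groups did not overlap, but the change was smaller than that of Gfap, with a log2FC of 0.35 (SE 0.07, interval 0.19 to 0.52; adjusted p = 0.0022, limma). Of all tested genes, 21.6% had a larger log2FC. The ratio of Gfap to Vim within a culture was 0.223, 0.214 and 0.226 in KE and 0.157, 0.152 and 0.156 in NT. Gfap therefore rose relative to Vim in every KE culture, by 0.51 on the log2 scale. The exact permutation p for this ratio was 0.1, two-sided, the smallest that 3 against 3 cultures allow.

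Nes (ENSMUSG00000004891; GRCm39 chr3:87878385-87887758, plus strand) encodes nestin. It was 24680, 24125 and 26512 in KE and 23866, 26189 and 26533 in NT, so that the KE cultures lay within the range of NT. Its log2FC was -0.02 (SE 0.06; adjusted p = 0.78, limma), and the 95% interval of the fold was 0.892 to 1.09. The Gfap to Nes ratio was 1.30, 1.31 and 1.16 in KE and 0.693, 0.678 and 0.663 in NT, a log2 difference of 0.89 (exact permutation p = 0.1). The balance of Gfap and Nes thus differed between the groups through Gfap, the gene of the pair that was called.

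Synm (ENSMUSG00000030554; GRCm39 chr7:67379908-67409527, minus strand) encodes synemin, which joins vimentin filaments to adhesion proteins. Its level was low, at 145, 109 and 135 in KE and 54.6, 106 and 113 in NT. NT replicate 1 stood below all other cultures, while KE replicate 2 lay within the range of NT. The log2FC was 0.56 (SE 0.26, interval -0.0026 to 1.13; adjusted p = 0.0887, limma), which was not called. The CV of 34.9% in NT was far above the 7.22% that was the median of tested genes in that group. Single cultures decided the value: the log2FC was 0.23 without NT replicate 1 and 0.75 without NT replicate 3 (adjusted p = 0.0355, limma).

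Plec (ENSMUSG00000022565; GRCm39 chr15:76055174-76116774, minus strand) encodes plectin, the large linker of the plakin family. It was 5511, 5699 and 6634 in KE and 4925, 5996 and 5274 in NT. NT replicate 2 was above KE replicates 1 and 2, and the log2FC of 0.14 (SE 0.09, interval -0.05 to 0.33; adjusted p = 0.199, limma) was not called. With single cultures left out, the log2FC ranged from 0.06 (without KE replicate 3) to 0.22 (without NT replicate 2) and stayed uncalled. The annotation gives its protein-coding transcripts 15 distinct start sites, which a gene-level count does not separate. Its exons also share 205 bases with those of Parp10 on the same strand. Parp10 was 3205, 3712 and 3453 in KE and 781, 967 and 673 in NT (log2FC 2.11), and its part in the Plec values was not tested.

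**Figure D2:**
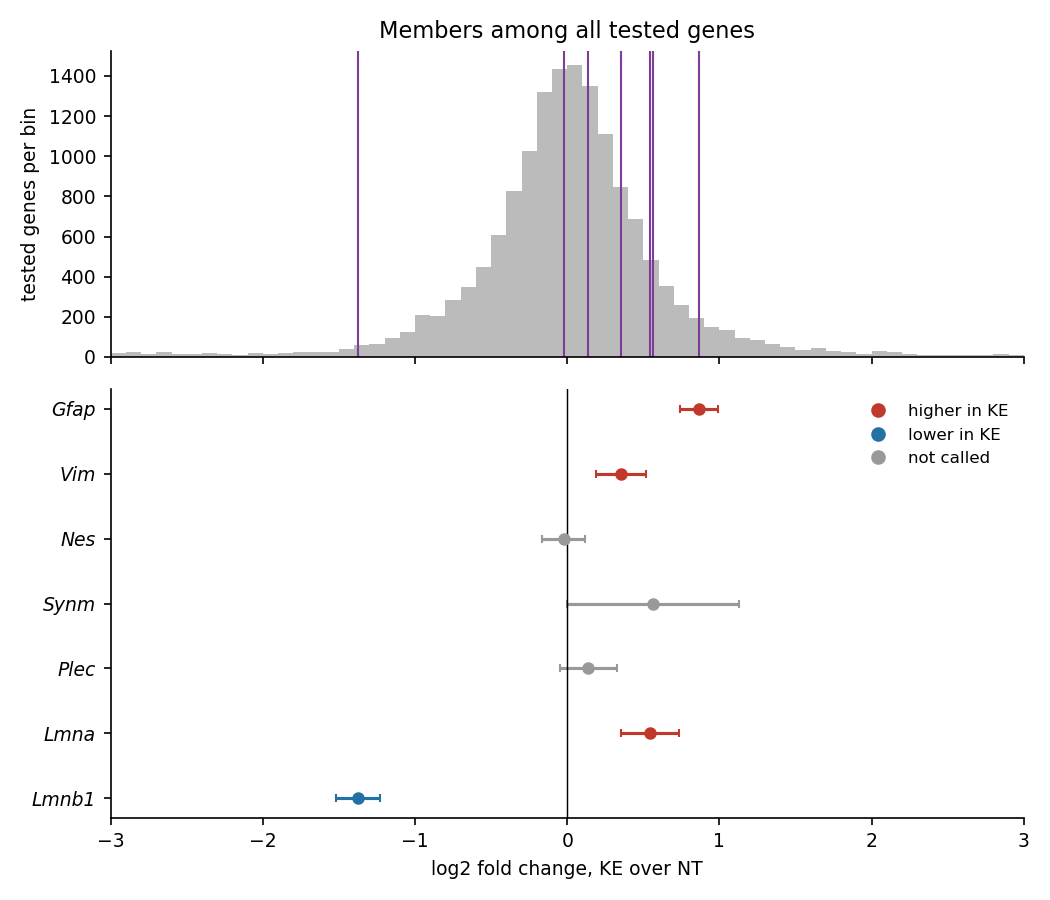
Upper panel, number of tested genes per bin of log2FC (KE over NT), with purple lines at the 7 genes; genes beyond the axis limits are not drawn. Lower panel, log2FC and 95% interval of each gene from limma, coloured by call. Gfap, Lmna and Vim lie to the right of 0, Lmnb1 far to the left at -1.38, and the intervals of Nes, Synm and Plec include 0.

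The lamins moved in opposite directions. Lmna (ENSMUSG00000028063; GRCm39 chr3:88387454-88417299, minus strand) encodes lamins A and C, which stiffen the nucleus and rise in differentiated cells. It was 2998, 3204 and 2826 in KE and 1825, 2314 and 2077 in NT. Every KE culture was higher than every NT culture, with a log2FC of 0.54 (SE 0.09, interval 0.35 to 0.73; adjusted p = 3.3e-04, limma).

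Lmnb1 (ENSMUSG00000024590; GRCm39 chr18:56840590-56886496, plus strand) encodes lamin B1, the farnesylated lamin that stays bound to the inner nuclear membrane. It was 2872, 2909 and 2719 in KE and 6932, 7156 and 7994 in NT. The highest KE culture was far below the lowest NT culture. The log2FC was -1.38 (SE 0.06, interval -1.52 to -1.23; adjusted p = 4.2e-08, limma), and 3.81% of tested genes had a smaller one. The Lmna to Lmnb1 ratio was 1.04, 1.10 and 1.04 in KE and 0.263, 0.323 and 0.260 in NT, a log2 difference of 1.92 (exact permutation p = 0.1). These ratios are of normalized counts and not of counts per length, so their change between groups can be read but not their absolute size.

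**Figure D3:**
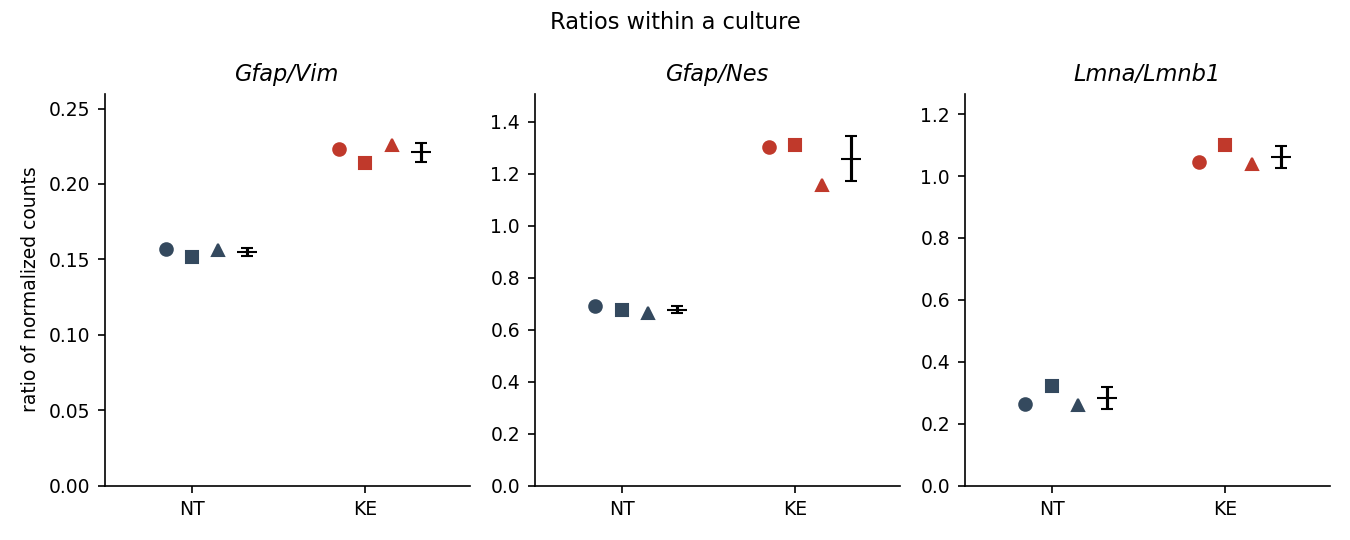
Ratio of normalized counts within each culture (vertical axes, from 0) for Gfap over Vim, Gfap over Nes and Lmna over Lmnb1, with black bars for the mean and SD of 3 cultures. Every KE culture lies above every NT culture in each panel, with means of 1.06 against 0.282 for Lmna over Lmnb1.

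Markers of dividing cells moved with Lmnb1. All 12 genes of a list that includes Mki67 and Top2a were lower in KE (median log2FC -1.02), and their summed normalized count was 38463 to 40602 in KE and 85401 to 89148 in NT. Mki67 had a log2FC of -1.64 and Top2a of -1.11. The part of these markers in the Lmnb1 result was not tested.

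To compare levels between genes, the normalized count was divided by the length of the longest annotated transcript. Per kb, Vim was by far the highest, at 48757 ± 2133 (SD, n = 3) in KE and 38189 ± 1980 in NT, and ranked 22 of 15240 genes by its mean. Gfap followed at 9840 ± 233 in KE and 5400 ± 206 in NT. Nes was at 4098 ± 204 and 4167 ± 237 counts per kb. These cultures therefore held far more vimentin than GFAP mRNA in both groups.

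The nuclear and linker genes were lower on the same scale. Lmnb1 was at 878 ± 31.3 counts per kb in KE and 2280 ± 174 in NT, Lmna at 708 ± 44.4 and 487 ± 57.5, and Plec at 385 ± 38.9 and 349 ± 35.3. Synm was near the bottom of the tested genes, at 16.4 ± 2.37 and 11.5 ± 4.03 counts per kb (rank 13257). The order Vim, Gfap, Nes, Lmnb1, Lmna, Plec, Synm was the same in KE and NT, and no neighbours in it overlapped between cultures of a group. With the union of all exons as the length, however, Nes (3720 to 4135 per kb) lay above Gfap (2896 to 3107 per kb) in NT, and Lmna overlapped Plec there.

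Of the summed counts per kb of Gfap, Vim, Nes and Synm, Gfap made up 15.7% ± 0.298 in KE and 11.3% ± 0.167 in NT (SD, n = 3). Vim made up 77.7% ± 0.801 and 79.9% ± 0.314, and Nes 6.55% ± 0.555 and 8.72% ± 0.206. The mix of cytoplasmic filament mRNA thus held a larger part of Gfap and a smaller part of Nes in each KE culture. The sum itself was 60336 to 64404 per kb in KE and 45139 to 49826 in NT, without overlap. With exon-union lengths the shares were 14.0% and 9.92% for Gfap and 9.93% and 13.0% for Nes in KE and NT. Nes then exceeded Gfap in NT. The Vim shares were then 76.0% in KE and 77.0% in NT, and the cultures of the groups overlapped. The sums were 38097 to 40452 per kb in KE and 28833 to 31829 in NT, again without overlap.

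Other lamina genes were read from a list of 18, which holds the further B-type lamin, membrane proteins that bind lamins, and the enzymes that process them. Of these, 3 were higher in KE, 5 were lower and 10 were not called (44.4% called; limma), with a median log2FC of 0.04. Those that fell were Tmpo (lamina-associated polypeptide 2; log2FC -1.14), Lbr (lamin B receptor; -0.87), Banf1 (which bridges chromatin and the lamina; -0.86), Lmnb2 (lamin B2; -0.71) and Syne2 (nesprin-2; -0.62). Tmpo, for example, was 3720, 3802 and 3825 in KE and 8725, 7966 and 8400 in NT. Both B-type lamins and the lamin B receptor were thus lower, while Lmna was higher.

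The lamina genes that rose were Tor1aip1 (lamina-associated polypeptide 1; log2FC 0.96), Sun2 (an inner membrane anchor for nesprins; 0.36) and Lemd2 (0.27). Tor1aip1 was 7005, 6630 and 7312 in KE and 3608, 3999 and 3180 in NT, without overlap. Emd (emerin; log2FC 0.07), Zmpste24 (the protease that matures prelamin A; 0.11) and Syne1 (nesprin-1; 0.05) were not called. The intervals of these log2FC reached at most 0.20, 0.27 and 0.20.

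**Figure D4:**
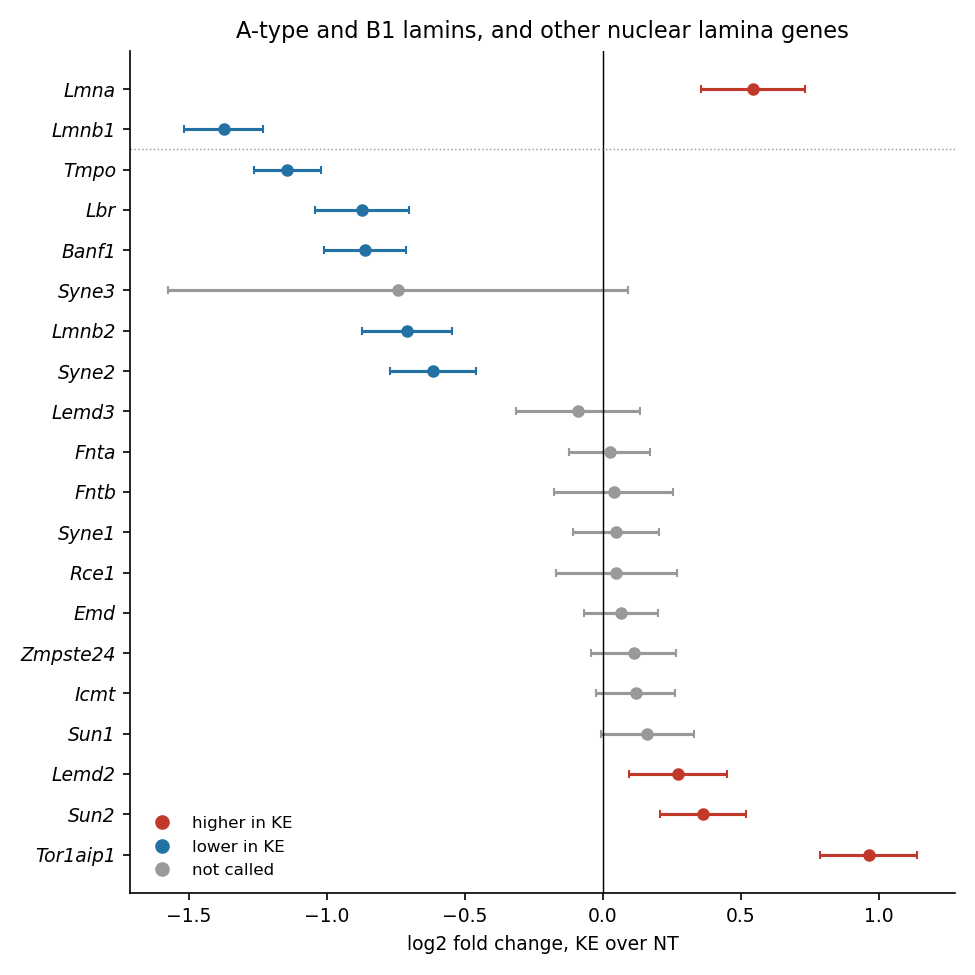
Horizontal axis, log2FC (KE over NT) with 95% intervals from limma, for Lmna and Lmnb1 (above the dotted line) and 18 other lamina genes (below it, ordered by log2FC), coloured by call. Lmnb1, Tmpo, Lbr, Banf1, Lmnb2 and Syne2 lie to the left of 0, and Tor1aip1 farthest to the right at 0.96.

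Other intermediate filament genes were mostly low. Of 16, 8 reached the mean of 10, and keratins of simple epithelia (Krt7, Krt8, Krt18 and Krt19), desmin (Des) and peripherin (Prph) did not. Of the 8, 4 were higher in KE, 1 was lower and 3 were not called, with a median log2FC of 0.49. The share called was 62.5%, beside 51.3% of all tested genes. All 5 called genes had a mean over 10 in both groups. Nefl, the neurofilament light chain, was 79.6, 62.5 and 60.7 in KE and 24.7, 17.6 and 17.2 in NT (log2FC 1.73; adjusted p = 1.6e-04, limma). Nefm, the medium chain, had a log2FC of 1.00, Bfsp2 one of 0.58 and Iffo1 one of 0.39. Ina, which encodes the neuronal filament alpha-internexin, was lower (22.6, 26.3 and 32.6 in KE and 49.5, 50.7 and 50.5 in NT; log2FC -0.88). Of 7 neuron markers tested, 1 was higher and 3 were lower (57.1% called), with sums of 6858 to 7122 in KE and 8978 to 9724 in NT. The mature neuron marker Rbfox3 did not reach the mean of 10, and the part of neurons in the neurofilament values was not tested.

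Among 12 tested plakins and proteins that link filaments to the membrane, 2 were higher in KE (4 without KE replicate 2), 3 were lower and 7 were not called (41.7% called; median log2FC 0.10). Ppl, which encodes periplakin, a relative of plectin, was 226, 216 and 199 in KE and 15.8, 23.8 and 16.2 in NT. Its log2FC of 3.48 (SE 0.21; adjusted p = 2.1e-07, limma) was the largest among the filament-related lists. Sntb1, a syntrophin of the dystrophin complex, also rose (0.69). Itga6 (an integrin of hemidesmosomes; -0.57), Macf1 (which crosslinks actin and microtubules; -0.47) and Dmd (dystrophin; -0.24) fell. Dst, Dag1 and Dtna, the most abundant of those not called, had log2FC of 0.04, 0.02 and 0.18. Plec and its abundant relative Dst were thus both uncalled, while the much less abundant Ppl rose. Macf1, a plakin more abundant than Dst, fell without overlap, with means of 16177 in KE and 22432 in NT.

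Genes that fold, modify or degrade filament proteins were read from a list of 11, of which 6 were higher in KE, 3 were lower and 2 were not called (81.8% called; median log2FC 0.30). The largest rises were those of Hspb1 and Hspb8, both small heat shock proteins. Hspb1 was 558, 642 and 504 in KE and 237, 243 and 216 in NT (log2FC 1.28), and Hspb8 was 9937, 9839 and 9993 in KE and 3947, 4285 and 4239 in NT (log2FC 1.26). Bag3, the partner of Hspb8, had a log2FC of 0.60, Cryab, a chaperone that binds GFAP, one of 0.57, and Padi2, which citrullinates GFAP and vimentin, one of 0.65. Capn2, a calpain that cleaves filaments, also rose (0.30). Hspa8, an abundant constitutive chaperone, fell (-0.25).

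**Figure D5:**
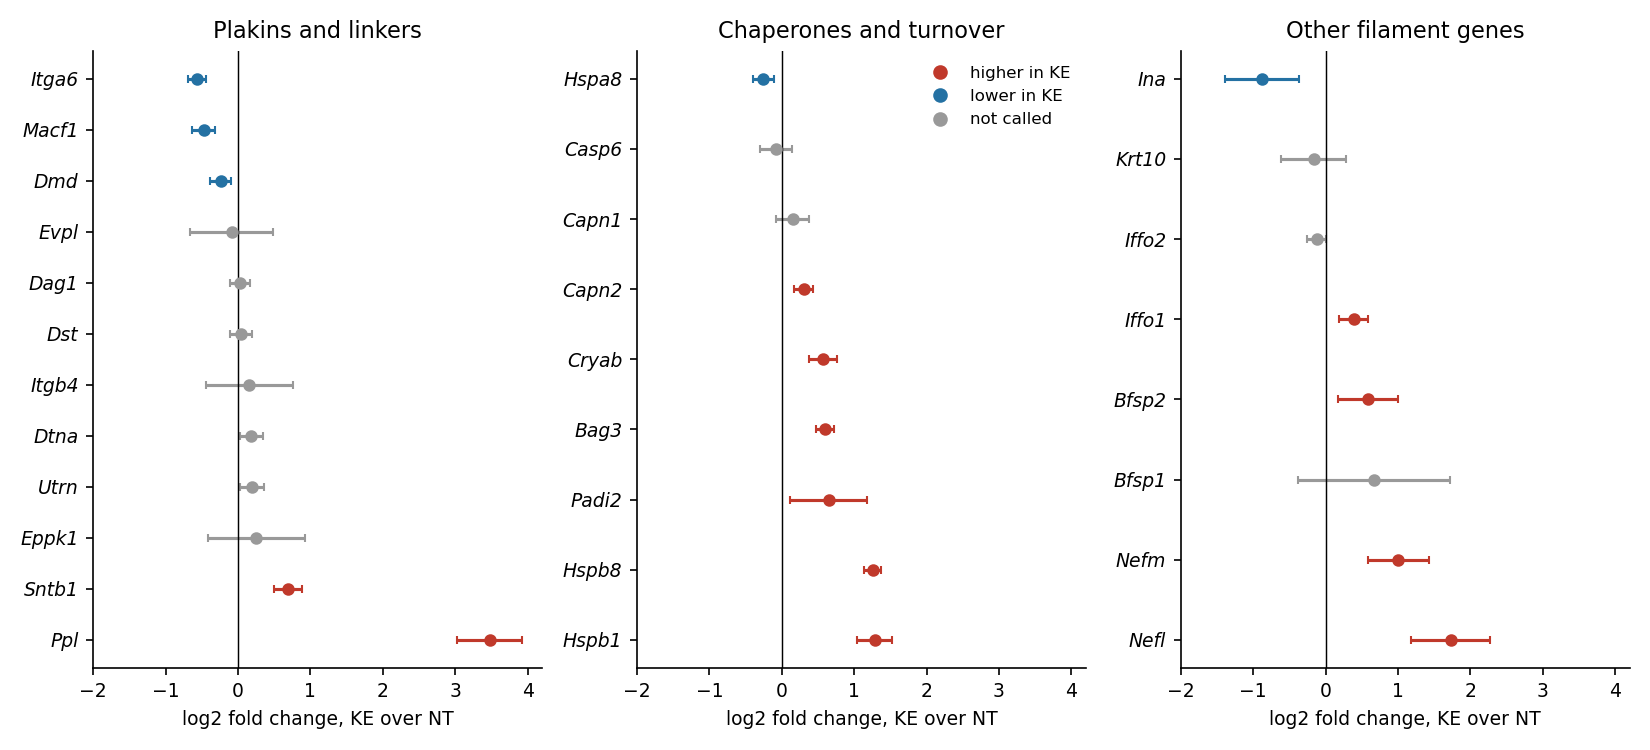
Horizontal axes, log2FC (KE over NT) with 95% intervals from limma, for genes from the lists of plakins and linkers, of chaperones and turnover, and of other filament genes, coloured by call. Ppl lies farthest to the right at 3.48, and Nefl at 1.73, Hspb1 at 1.28 and Hspb8 at 1.26 follow.

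Of 14 kinases and phosphatases that act on filament proteins or lamins, 3 were higher in KE, 7 were lower and 4 were not called (71.4% called; median log2FC -0.19). The mitotic kinases Cdk1 (-1.05), Aurkb (-0.95) and Plk1 (-0.77), which phosphorylate vimentin or lamins when the filaments are taken apart in mitosis, had the largest falls. Cdk1 and Aurkb also belong to the dividing cell markers above. Camk2d (0.61), Prkca (0.50) and Cdk5 (0.48) rose, whereas Ppp2ca (0.00), Pak2 (-0.13) and Prkaca (-0.04) were not called.

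Of 14 transcription factors and cofactors known to act on these genes, 6 were higher in KE, 4 were lower (2 without KE replicate 1) and 4 were not called (71.4% called; median log2FC 0.09). The AP-1 genes rose: Junb by 0.77, Fos by 0.77 and Jun by 0.44 on the log2 scale. Fos was 862, 974 and 964 in KE and 493, 537 and 616 in NT. Sox9 (0.41), which is also among the astrocyte markers, Stat3 (0.33) and Sox2 (0.32) rose less. Rbpj (-0.42), the DNA-binding factor of Notch signalling, Nfib (-0.39), Notch1 (-0.21) and Nfia (-0.50) fell, although KE and NT cultures overlapped for Nfia, with KE replicate 3 at 3169 and NT replicate 3 at 2957. Nfix, Smad4 and Smad1 were not called (log2FC 0.05, -0.06 and 0.13).

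Most astrocyte markers were abundant in all cultures, while Gjb6, S100b and Gpc5 were low. Of 11 tested, 7 were higher in KE and 1 was lower (72.7% called). Their sum was 171315 to 177246 in KE and 134459 to 143404 in NT, so it rose beside Gfap and Vim. Aqp4, the water channel of astrocyte endfeet, was 10973 ± 210 in KE and 10809 ± 352 in NT (SD, n = 3; log2FC 0.02, not called), and Slc1a3 and Glul had log2FC of 0.25 and 0.38. The glutamate transporter Slc1a2 (0.85) and Aldh1l1 (0.72) rose nearly as much as Gfap, and Gja1, the gene of connexin 43, fell (-0.46). Gjb6 did not reach the mean of 10, and S100b was at 11.8 to 31.5 in all cultures. Gpc5, counted among the 7 higher genes, had a mean of 29.2 in KE and 9.93 in NT. It thus reached the mean of 10 only through KE, and its log2FC (1.6) is not ranked.

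Markers of other cell types were detected. All 12 microglia and macrophage markers were lower in KE (median log2FC -3.34), with sums of 3099 to 4844 in KE and 35242 to 41284 in NT. Oligodendrocyte lineage markers summed to 29234 to 34157 in KE and 37295 to 37663 in NT (1 of 7 higher, 6 lower), mostly through Olig1 and Olig2, and Mog did not reach the mean of 10. Markers of mural cells and fibroblasts, which also express vimentin and nestin, summed to 4786 to 4861 in KE and 6092 to 7952 in NT (3 of 10 higher, 5 lower). Tagln (-1.17) and Acta2 (-1.34) fell most, while Rgs5 (0.79), Lum (0.39) and Col1a2 (0.37) rose, and without Tagln and Acta2 the sums overlapped, at 3096 to 3185 in KE and 2994 to 3689 in NT. Of 8 endothelial markers, Cdh5, Cldn5 and 3 others did not reach the mean of 10, and 2 of the 3 tested were lower, with sums of 243 to 304 in KE and 339 to 497 in NT. Of 6 ependymal markers, Ccdc153, Tmem212 and Cfap43 did not reach the mean of 10. The 3 tested, of which 1 was lower, summed to 2366 to 2669 in KE and 2065 to 2418 in NT, mostly through Foxj1 and Rarres2. The part of these cell types in the filament results was not tested.

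The genes whose values followed each filament gene most closely were sought among 12071 genes with a mean of at least 100, by Pearson's r over the 6 cultures. Since the 6 points fall into the KE and NT groups, r is high for many genes whose groups are apart. For Gfap the closest were Cd99l2 (r = 0.999) and Slc25a33 (r = 0.999), but 2450 genes had r over 0.9. For Vim they were Ergic3 and Map1lc3b (both r over 0.9, as for 2092 genes), for Lmna Zswim1 and Snap47 (1828 genes) and for Lmnb1 Suv39h1 and Mest (2462 genes). The uncalled genes had fewer followers. For Nes, Zmat3 (r = 0.979) and Atxn1 were closest of 33 genes over 0.9, for Plec Glg1 (r = 0.990) and Slc23a2 of 51, and for Synm Gne (r = 0.992) and Tsku of 81.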

How the data were processed

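RNA was measured in 3 KE and 3 NT cultures, grouped by their labels. The authors deposited a normalized signal per gene and culture, namely Salmon gene counts divided by DESeq2 size factors, after trimming with Trim Galore and alignment with STAR. Their methods give GRCm39 with Gencode vM28 for mouse, and also mention a batch adjustment without naming batches. The labels' processing notes list GRCh38, but the gene identifiers are of mouse. Libraries were made with a stranded mRNA kit. Whether counting used the strand is not given in the sources used here. On the opposite strand Vim shares 586 exon bases with Gm54102, Lmnb1 466 with Marchf3 and 160 with Gm58425, Synm 463 with Gm45102 and 84 with Ttc23, and Plec 220 with Gm62212.

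Normalization removes sequencing depth. Whole reads could not be recovered, since only 74.7% to 77.6% of low values were whole multiples to within 0.1, so no count test was run and depth is approximate. The deposited values were used as log2(normalized count + 1) in limma 3.58.1 (R 4.3.3) with a variance trend, in genes with a mean of at least 10. Tests are two-sided. For genes with low counts this scale gives a smaller log2FC than the true one. Of 55357 genes, 29858 had no counts in any culture. Across genes, Pearson's r was at least 0.989 within groups and at most 0.95 between them. The fit was tested on simulated data.

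Coordinates and lengths came from Gencode vM39 on GRCm39, and promoters from that genome. RefSeq supplied the alternative Vim start. Protein sequences were not analysed here, and values of some single genes are left out. All 7 genes, Braf, up to 4 called and 3 abundant uncalled genes per list, the 2 most abundant markers per cell type and the 2 genes most like each member were to be named. Other list genes, and Parp10, were named after their values were seen. The 7 genes and the lists were chosen with earlier results of these data known. Alternatives were other pseudocounts, filters, scalings, no variance trend, the replicate number as a block, exon-union lengths and leaving out each culture.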

Additional observations from a re-analysis of the deposited data

How the results depend on the processing

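Of 359 alternative values, 345 left matters as they were: called or uncalled in the same direction for a log2FC, of the same sign for a ratio, within 1.5 times for a count of genes, and within 1 SD of the 6 cultures for a level per kb. Across 14 alternatives each, Gfap (log2FC 0.83 to 0.89), Vim (0.31 to 0.39), Lmna (0.46 to 0.63) and Lmnb1 (-1.42 to -1.31) remained called, and Plec (0.06 to 0.22; limma adjusted p = 0.0568 to 0.588) remained uncalled. Nes stayed uncalled and ranged from -0.072 to 0.0049 when single cultures were left out, its sign turning without KE replicate 2 (0.0044) and without NT replicate 3 (0.0049). Synm became called under quantile normalization (0.69; limma adjusted p = 0.0461) and without NT replicate 3 (0.75), over a range of 0.23 to 0.75 and adjusted p from 0.0355 to 0.314. The log2 Synm to Vim ratio, 0.21 with all cultures, ranged from -0.078 to 0.40 and was negative without NT replicate 1 (-0.078). With a mean of at least 50, 0 other filament genes were lower, since Ina no longer entered. Plakin and linker genes higher in KE numbered 4 under 75th percentile scaling, and 2 to 4 when single cultures were left out (4 without KE replicate 2). Regulators lower in KE numbered 2 without the variance trend, and 2 to 4 with single cultures left out (2 without KE replicate 1). The cause of these shifts was not tested. Exon-union length, by its longer denominator, lowered the mean per kb to 4272 for Gfap, 26768 for Vim, 313 for Plec and 410 for Lmna. No scaling moved the median log2FC of all genes by over 0.1. Deviations of same-numbered KE and NT cultures correlated at 0.059 to 0.066, and those of other pairs at -0.050 to -0.010, so every culture correlated best with its own number, a hint from the data and not from the design. A fit with a replicate block called 8046 genes rather than 7844, and no call of the 7 genes changed. Without single cultures, 6776 to 7199 genes were called. The 3 cultures per group limit every interval.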
